A study of Mus musculus with 13 samples.

Results

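The 10 genes described here encode the core of the BCL2 family, the proteins that decide at the mitochondrion whether a cell survives or dies by apoptosis. They were chosen by gene name, with earlier results of these data known, and they were 10 of the 31528 genes in the table. The survival members are Bcl2, Bcl2l1 (which encodes BCL-XL), Bcl2l2 (BCL-W) and Mcl1. The effectors are Bax, Bak1 and Bok, and the BH3-only genes among the 10 are Bcl2l11 (BIM), Bbc3 (PUMA) and Pmaip1 (NOXA). All 10 had counts in at least 10 of the 13 libraries, and all 10 passed the filter on low counts.

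Whole mouse blastocysts of the B6D2F1 background (mixed C57BL/6 and DBA2J) gave RNA for 13 libraries of 6 groups, in a study of embryonic diapause, the reversible arrest of the blastocyst before implantation. The reference was wild-type blastocysts of embryonic day 4.5 under a normal diet (E4.5, n = 2). The other 5 groups were of embryonic day 5.5. Wild-type blastocysts came from ovariectomy (OVX, n = 2), the hormonal route to diapause, or from starvation (n = 2). A further pair of wild-type groups was cultured in KSOM, a defined medium for preimplantation embryos. One medium had neither protein nor carbohydrate components (depleted KSOM, n = 2), and the other held less glucose, lactate, arginine, lysine, leucine and isoleucine (reduced KSOM, n = 3). The last group combined ovariectomy with guide RNAs against Nprl2 and Tsc2, and its genotype label is a knockout of both (targeted OVX, n = 2). Nprl2 and Tsc2 encode restraints on the growth kinase complex mTORC1. Age and treatment cannot be told apart in any comparison with E4.5, and neither can culture and nutrient lack in the KSOM groups, for which no complete medium was among the groups used here. The labels do not say whether replicates came from separate mothers or cultures, so p-values measure the spread between these samples, which may be technical.

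BCL2 family proteins share short helical stretches called BCL2 homology domains. BAX, BAK and, by some accounts, BOK form pores in the outer mitochondrial membrane, through which cytochrome c leaves to switch on caspases. The survival proteins hold the effectors and the BH3-only proteins in a groove, and BH3-only proteins fill that groove or switch the effectors on directly. Much of the control is by protein stability, phosphorylation and binding, which RNA levels do not show. MCL1 in particular is a protein of short life, and early embryos that lack it die around implantation.

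The motif that these proteins use to bind one another is shown first, because it is what all 10 genes have in common. The principal coding sequence of each gene in GENCODE vM21 (GRCm38) was searched for codons of the BH3 core, a leucine or methionine followed 4 codons on by a glycine or alanine and then an aspartate, with a small hydrophobic residue just before the glycine or alanine. All 10 of the genes held this core, against 10.2% of 21755 coding genes. The pattern describes this family itself, so the match of its members was fixed in advance and is no result. The stricter pattern of leucine, glycine and aspartate was present in 4.21% of coding genes, and Bcl2l2 and Bbc3 lack it. A match is a description of letters and not a tested site. The windows below run 5′ to 3′ on the coding strand, and the capitals mark the codons of the leucine or methionine, the glycine or alanine, and the aspartate.

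Bcl2: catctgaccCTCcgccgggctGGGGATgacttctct

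Bcl2l1: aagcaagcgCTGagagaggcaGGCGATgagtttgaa

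Bcl2l2: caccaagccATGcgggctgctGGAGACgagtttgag

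Mcl1: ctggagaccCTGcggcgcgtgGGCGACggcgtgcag

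Bax: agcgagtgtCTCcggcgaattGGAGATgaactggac

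Bak1: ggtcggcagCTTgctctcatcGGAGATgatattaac

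Bok: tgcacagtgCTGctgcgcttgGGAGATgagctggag

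Bcl2l11: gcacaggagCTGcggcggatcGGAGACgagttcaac

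Bbc3: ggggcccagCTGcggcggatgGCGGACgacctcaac

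Bcl2l2 opens its core with methionine and Bbc3 has alanine in the small position, while the other 7 printed windows have leucine and glycine. The Bax core lies in exon 3 of 6 (chr7:45465997-45466032, minus strand) and starts at codon 63 of 192. The Mcl1 core lies in exon 1 of 3 (chr3:95659427-95659462, plus strand) and starts at codon 194 of 331. That of Bcl2l11 is in exon 3 of 4 (chr2:128147141-128147176, plus strand), and that of Bcl2l1 in exon 2 of 3 (chr2:152829697-152829732, minus strand). In Bok the core is joined across exons 2 and 3 (chr1:93686648-93689170, plus strand). Pmaip1, on chromosome 18, had 2 matches in its coding sequence, in exons 2 and 3.

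Total counts ran from 40678386 to 72125687 per library, and 21808 genes were tested. Trophectoderm and epiblast markers were detected in all 13 libraries, and 1 of 5 primitive endoderm markers was at 0 in depleted KSOM replicate 2. Summed over 13 skeletal muscle markers, OVX replicate 1 had 1410 CPM (counts scaled to library size) and the reduced KSOM libraries 1210, 1430 and 1040, against 164 to 494 elsewhere. Summed over 12 neutrophil markers, the same libraries had 681, 1430, 1950 and 1400 CPM, against 32.5 to 193 elsewhere. All 13 muscle and all 12 neutrophil markers were above 0 in these 4 libraries, whereas 3 to 10 muscle and 2 to 10 neutrophil markers were at 0 in each of the others. Comparisons with OVX and the test over all groups were also computed without these 4 libraries. OVX then rests on replicate 2 alone. Comparisons with reduced KSOM could not be computed in this way, because all of its libraries are among the 4. In whole blastocysts, fewer cells of a type and less RNA per cell cannot be told apart. The transcripts of the targeted genes were measured in all groups: Nprl2 differed between targeted OVX and OVX by −0.81 ± 0.52 in log2 and Tsc2 by −0.7 ± 0.49 (edgeR quasi-likelihood test, adjusted p = 0.55 and 0.58). A guide-induced lesion need not lower the transcript, so these values neither bear out nor contradict the knockout label.

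Levels between genes are compared here in FPKM, the values that the authors deposited, normalised for transcript length and library size. Bax was the highest of the 10 genes in every library, at 50.99 to 271.46 FPKM, and it ranked between 349 and 1151 among all genes. Mcl1 (4.35 to 26.08 FPKM) and Bok (4.79 to 31.47 FPKM) shared the 2 next places in every library. Bcl2l1 reached at most 7.35 FPKM and Pmaip1 at most 6.92. The remaining genes were low throughout, with highest values of 2.43 FPKM for Bcl2l11, 1.98 for Bcl2l2, 1.75 for Bak1, 1.1 for Bbc3 and 0.18 for Bcl2. Bax alone took 55% to 90.9% of the summed FPKM of the 10 genes, and Mcl1 was the main survival transcript.

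**Figure D1:**
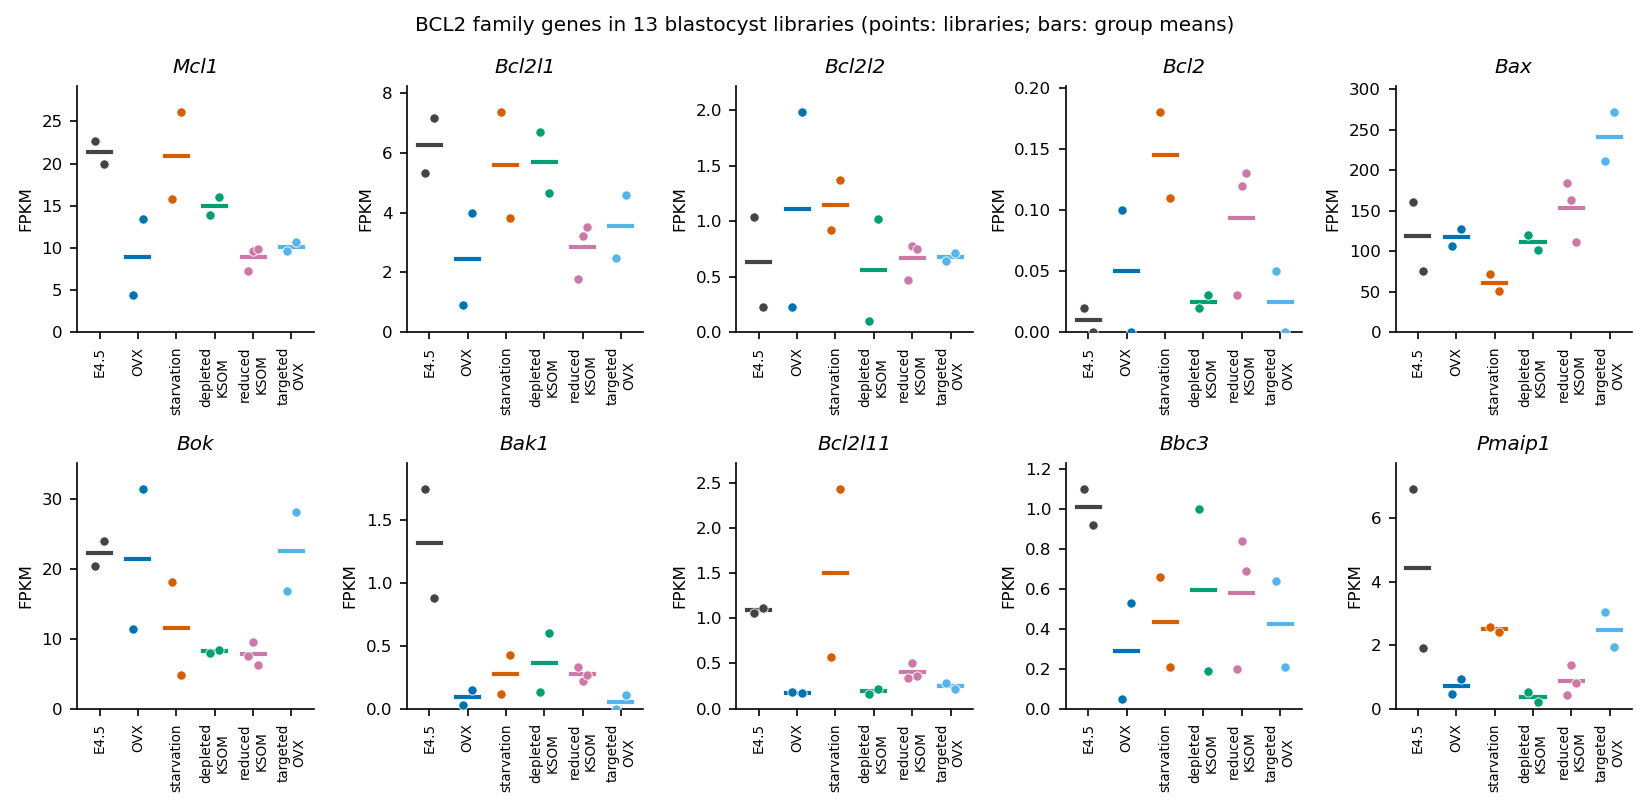
FPKM of the 10 BCL2 family genes (vertical axes, 1 scale per gene) in the 6 groups (horizontal axes); each point is a library and each bar a group mean. For Bax both targeted OVX libraries (211.39 and 271.46 FPKM) lie above the other 11, and both starvation libraries (50.99 and 71.28) below the other 11.

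Grouped by role, the effectors took between 60.7% (starvation replicate 2) and 94.9% (OVX replicate 1) of the summed FPKM of the 10 genes. The survival genes took 4.5% in OVX replicate 1 and 33.9% in starvation replicate 2, the lowest and highest of the 13. Within the survival class Mcl1 held 65.2% to 83.1% in every library. The ratio of effector to survival FPKM was 6.28 and 3.69 in E4.5, 3.69 and 1.79 in starvation, and 6.16 and 5.09 in depleted KSOM. It was 21.1 and 8.22 in OVX, 20.2, 12.6 and 8.31 in reduced KSOM, and 17.9 and 18.7 in targeted OVX. All 7 libraries of the last 3 groups were therefore above all 6 of the first 3, as a description without a test. OVX replicate 1 and the reduced KSOM libraries, among those 7, hold muscle and neutrophil transcripts. Bax and Bok transcripts are short (median 674.5 and 740 bases), and those of Mcl1 (2138) and Bcl2l1 (1403) are longer. Across genes, the rank correlation of relative abundance with length was −0.24 to 0.03 in those 7 libraries and 0.01 to 0.3 in the other 6. The part of length in the ratio was not tested. The BH3-only share was highest in starvation replicate 2 (5.46%) and lowest in depleted KSOM replicate 2 (0.465%). It covers only the BH3-only genes among the 10. Bad, a BH3-only gene outside them, averaged from 18.3 ± 13.9 FPKM in starvation to 41.5 ± 3 in targeted OVX (mean ± SD, n = 2 each).

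**Figure D2:**
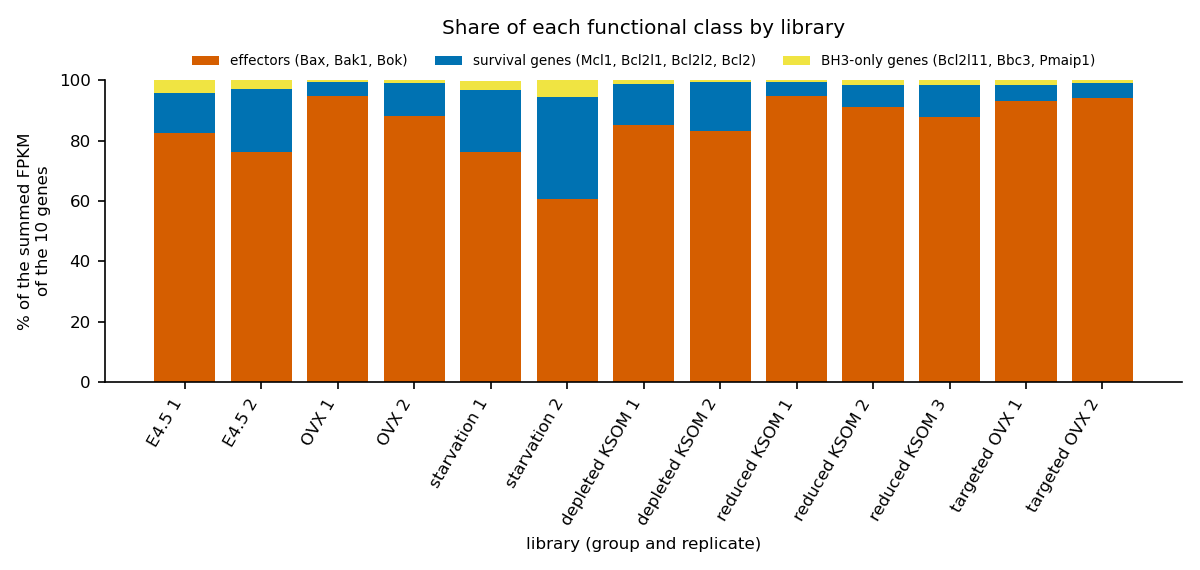
Share of the summed FPKM of the 10 genes (vertical axis, percent) taken by effectors, survival genes and BH3-only genes in each of the 13 libraries (horizontal axis). Effectors fill 60.7% to 94.9% of every bar, and the survival share is widest in starvation replicate 2 at 33.9%.

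Whether any of the 10 genes varied between the 6 groups was asked with 1 edgeR quasi-likelihood fit of all 13 libraries, with Benjamini-Hochberg adjustment over all 21808 genes and calls at an adjusted p under 0.05. Bax was called (adjusted p = 0.016), and it was the 1 gene called of 10. Of all genes tested 12.3% were called, so that count is close to the background. At an unadjusted p under 0.05 there were 4 members, against 29.6% of all genes. Pmaip1 (adjusted p = 0.068), Bcl2l11 (0.073) and Bok (0.084) did not pass. Mcl1 (0.27), Bak1 (0.43), Bcl2l1 (0.52), Bcl2 (0.74), Bcl2l2 (0.91) and Bbc3 (0.94) did not differ detectably between groups at this number of replicates. DESeq2 called 4 genes in this test, adding Pmaip1 (adjusted p = 0.00089), Bcl2l11 (0.0011) and Bok (0.006). Bax came nearest the threshold with library totals as scaling (edgeR adjusted p = 0.05 as rounded) and with limma on FPKM (0.044). The Bax call held under all 21 alternatives, including all 13 leave-outs of a single library (adjusted p from 0.0029 to 0.039), and was at an adjusted p of 0.016 without the 4 libraries with muscle transcripts.

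Among the survival genes, Mcl1 (ENSMUSG00000038612, chr3:95658788-95663176) measured 22.72 and 19.95 FPKM in E4.5, 4.35 and 13.44 in OVX, and 15.83 and 26.08 in starvation. In depleted KSOM it measured 13.94 and 16.07, in reduced KSOM 7.2, 9.64 and 9.86, and in targeted OVX 9.57 and 10.72 FPKM. Both E4.5 libraries were above all OVX, depleted KSOM, reduced KSOM and targeted OVX libraries, and the starvation libraries lay on either side of E4.5. The order differed in part on the other scale: in CPM scaled by trimmed means (TMM), which the test uses, Mcl1 averaged 59.5 ± 7.89 in E4.5 (mean ± SD, n = 2) and 67.7 ± 18.8 in starvation (n = 2). On that scale it averaged 34.4 ± 14.5 in OVX (n = 2), 51 ± 6.48 in depleted KSOM (n = 2), 39.1 ± 6.39 in reduced KSOM (n = 3) and 46.8 ± 0.778 in targeted OVX (n = 2). The depleted KSOM libraries, at 46.4 and 55.6 CPM, overlapped E4.5, whose replicate 2 had 53.9. Against E4.5 the log2 difference was −0.79 ± 0.36 in OVX (SE, adjusted p = 0.32), −0.61 ± 0.33 in reduced KSOM (0.39) and −0.35 ± 0.36 in targeted OVX (0.65), and none passed. The largest difference of Mcl1 among the 10 comparisons was between starvation and OVX, at 0.97 ± 0.36 (adjusted p = 0.24), and it was 0.59 to 1.49 when single libraries were left out. Without OVX replicate 1 and the reduced KSOM libraries, which hold muscle transcripts, Mcl1 differed by −0.47 ± 0.48 between OVX and E4.5 (adjusted p = 0.89).

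Bcl2l1 (ENSMUSG00000007659, chr2:152780668-152831728), the longer-lived guard of the mitochondrion, measured 5.32 and 7.17 FPKM in E4.5, 0.89 and 3.97 in OVX, 7.35 and 3.83 in starvation, and 6.69 and 4.66 in depleted KSOM. It measured 1.78, 3.22 and 3.51 FPKM in reduced KSOM and 2.49 and 4.58 in targeted OVX. OVX replicate 1, the lowest library for Bcl2l1, was also the lowest for Mcl1. In TMM CPM neighbouring groups in the order of Bcl2l1 all overlapped, from depleted KSOM at 25.8 ± 5.83 (n = 2) to OVX at 12.2 ± 7.85 (n = 2). Bcl2l2 ranged from 0.1 to 1.98 FPKM, and its groups overlapped as well. Its value is uncertain, since Gm20521, a readthrough transcript on the same strand, shares its exons and had between 0 and 1006 counts. Bcl2, the founding member of the family, was at 0 counts in 3 libraries and never above 118 counts, and group differences in it could not be resolved in these libraries.

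Bax (ENSMUSG00000003873, chr7:45461697-45466898) was the only effector that the edgeR test over the 6 groups called. It measured 160.5 and 75.91 FPKM in E4.5, 106.1 and 127.7 in OVX, 71.28 and 50.99 in starvation, and 119.69 and 101.87 in depleted KSOM. In reduced KSOM it measured 183.62, 163.29 and 111.87 FPKM, and in targeted OVX 211.39 and 271.46. In FPKM the E4.5 libraries differed from each other more than those of any other group and overlapped OVX, depleted KSOM and reduced KSOM. In TMM CPM the E4.5 libraries, at 212 and 94.6, lay below all reduced KSOM libraries, at 237 to 382. Ordered by TMM CPM, targeted OVX stood first at 511 ± 40.7 (n = 2) and did not overlap the next group, reduced KSOM at 309 ± 72.7 (n = 3). OVX followed at 234 ± 53.7, then depleted KSOM at 173 ± 15, E4.5 at 153 ± 83 and starvation at 92.9 ± 28.1 (n = 2 each). OVX did not overlap depleted KSOM, whereas depleted KSOM, E4.5 and starvation overlapped their neighbours.

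Bax was 3.33-fold higher in targeted OVX than in E4.5 (log2 difference 1.74 ± 0.41 SE, edgeR adjusted p = 0.045). It was the 1 gene of 10 called in that comparison, in which 2.66% of all genes were called. The adjusted p missed 0.05 on leaving out E4.5 replicate 2 (1.26, adjusted p = 0.34), targeted OVX replicate 1 (1.81, 0.053) or targeted OVX replicate 2 (1.65, 0.12). The same held with library totals as scaling (1, 0.16), with limma on FPKM (1.11, 0.092), in a fit of the groups compared alone (1.68, 0.13) and without the 4 libraries with muscle transcripts (1.72, 0.058). The difference was higher in every one of these, and DESeq2 gave 1.77 ± 0.43 (adjusted p = 0.001). The Bax differences from E4.5 in reduced KSOM (1.01 ± 0.38, adjusted p = 0.23), OVX (0.61 ± 0.4, 0.47), depleted KSOM (0.17 ± 0.4, 0.87) and starvation (−0.72 ± 0.4, 0.37) did not pass. With library totals the OVX and depleted KSOM values became −0.04 and −0.13. Against OVX, from which targeted OVX differs by the guides, Bax differed by 1.13 ± 0.4 (adjusted p = 0.34; 1.42 ± 0.55 and 0.47 without the 4 libraries with muscle transcripts), which did not pass. Between starvation and OVX Bax differed by −1.33 ± 0.41 (adjusted p = 0.16), which passed with DESeq2 (−1.34 ± 0.43, 0.026).

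Measured beside Bax, the share of short transcripts moved with the groups. Across genes, abundance relative to the other libraries correlated with transcript length at a rank correlation of −0.24 and −0.19 in targeted OVX, against 0.01 and 0.13 in E4.5 and 0.09 and 0.3 in starvation. The Bax transcript is short, with a median length of 674.5 bases that puts it at the 17.1 percentile. With offsets for length and GC content, the Bax difference between targeted OVX and E4.5 was 1.92 ± 0.37 (adjusted p = 0.023). Neutrophil markers summed to 32.5 and 58.8 CPM in the targeted OVX libraries, and to 73.2 and 127 CPM in E4.5. Csf3r alone gave 71.8 and 126 CPM of the E4.5 sums, and 15.4 and 23.6 CPM in targeted OVX. S100a8 and S100a9 went the other way. In targeted OVX S100a8 had 10.7 and 13.3 CPM, against 0.214 and 0.0819 in E4.5. S100a9 had 4.42 and 18.9 CPM, against 0 and 0.43. Epiblast markers summed to 195 and 93.7 CPM in targeted OVX against 426 and 394 in E4.5, primitive endoderm markers to 55.1 and 56.5 against 275 and 196, and trophectoderm markers to 3300 and 5040 against 6300 and 9630. The part of these lineages in the Bax difference was not tested. Gm45808, a gene model that overlaps Bax on the same strand, had at most 37 counts.

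**Figure D3:**
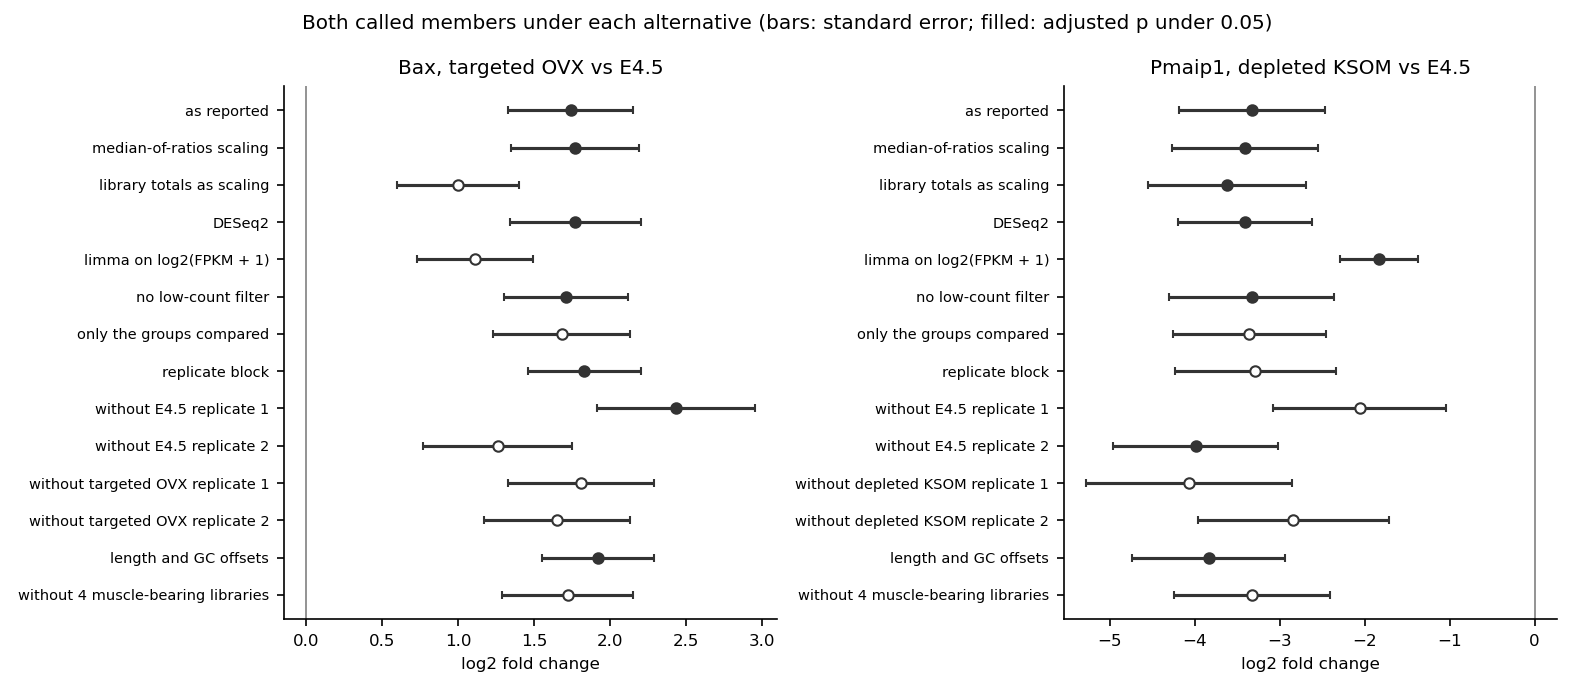
Log2 fold change of Bax between targeted OVX and E4.5 (left) and of Pmaip1 between depleted KSOM and E4.5 (right) as reported and under each alternative listed on the vertical axis; bars are standard errors and filled points have an adjusted p under 0.05. Every point for Bax is above 0 (1 to 2.43) and every point for Pmaip1 below 0 (−4.07 to −1.83), but many are not filled.

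Bok (ENSMUSG00000026278, chr1:93685660-93695764), the effector that is known to escape control by the survival proteins, measured 20.47 and 24.02 FPKM in E4.5, 11.39 and 31.47 in OVX, and 16.86 and 28.17 in targeted OVX. It measured 8.03 and 8.34 FPKM in depleted KSOM, 7.58, 9.5 and 6.26 in reduced KSOM, and 18.17 and 4.79 in starvation. All 5 KSOM libraries were below all 6 libraries of E4.5, OVX and targeted OVX, and the starvation libraries fell on both sides. Against OVX the log2 difference was −1.59 ± 0.54 in depleted KSOM (edgeR adjusted p = 0.17) and −1.31 ± 0.48 in reduced KSOM (0.4), and neither passed. DESeq2 called the first of these (−1.64 ± 0.57, adjusted p = 0.04). With OVX replicate 2 alone, after removal of the 4 libraries with muscle transcripts, the first was −1.86 ± 0.66 (edgeR adjusted p = 0.56). Against E4.5 the differences were −1.15 ± 0.54 (adjusted p = 0.24) and −0.86 ± 0.48 (0.41). Each passed in a fit of the groups compared alone (−1.18, adjusted p = 0.048, and −0.94, 0.043). Without starvation replicate 1, Bok passed between starvation and E4.5 (−2.09, adjusted p = 0.027) and between starvation and OVX (−2.49, 0.037), comparisons that then rest on the lower library alone.

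Bak1 (ENSMUSG00000057789, chr17:27019810-27029009), the effector that sits constantly on mitochondria, measured 1.75 and 0.88 FPKM in E4.5 and at most 0.6 in the other 11 libraries. Its counts were 266 and 116 in E4.5, and 4 and 29 in OVX, 21 and 83 in starvation, 26 and 109 in depleted KSOM, 51, 26 and 42 in reduced KSOM, and 0 and 12 in targeted OVX. Both E4.5 libraries were thus the highest. The log2 differences against E4.5 ran from −3.94 ± 1.88 in targeted OVX (edgeR adjusted p = 0.3) to −1.54 ± 1.69 in depleted KSOM (0.64) and none passed. Limma on log2(FPKM + 1), a scale that understates the change of low genes, called Bak1 in OVX (−1.06, adjusted p = 0.019), starvation (−0.85, 0.045), reduced KSOM (−0.84, 0.031) and targeted OVX (−1.11, 0.015). These comparisons share the same E4.5 libraries. Ggnbp1 lies antisense over Bak1 with 30 to 682 counts, and the strand setting of the counting is not given in the sources used here, so that reads of the pair may not have been separated.

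The BH3-only gene Pmaip1 (ENSMUSG00000024521, chromosome 18), whose product binds MCL1 with preference, measured 6.92 and 1.92 FPKM in E4.5, 2.58 and 2.42 in starvation, and 3.05 and 1.93 in targeted OVX. It measured 0.47 and 0.94 FPKM in OVX, 0.52 and 0.21 in depleted KSOM, and 0.43, 1.38 and 0.8 in reduced KSOM. In FPKM all 6 libraries of the first 3 groups were above all 7 of the other 3. In TMM CPM they overlapped, with reduced KSOM replicate 2 at 4.54 and E4.5 replicate 2 at 4.16. Pmaip1 was lower in depleted KSOM than in E4.5, at 0.993 ± 0.565 against 10 ± 8.27 TMM CPM (n = 2 each; log2 difference −3.33 ± 0.86, edgeR adjusted p = 0.042). It was the 1 gene of 10 called there, where 5.51% of all genes were called. The 2 E4.5 libraries stood far apart in this gene. The adjusted p missed 0.05 without E4.5 replicate 1 (−2.06, adjusted p = 0.43), depleted KSOM replicate 1 (−4.07, 0.11) or depleted KSOM replicate 2 (−2.84, 0.25). It also did so in a fit of the groups compared alone (−3.36, adjusted p = 0.065) and without the 4 libraries with muscle transcripts (−3.33, 0.057), and DESeq2 gave −3.41 ± 0.79 (adjusted p = 0.00033). Beside it, epiblast markers summed to 171 and 212 CPM in depleted KSOM against 426 and 394 in E4.5, and primitive endoderm markers to 85 and 103 against 275 and 196. Erythroid markers summed to 379 CPM in depleted KSOM replicate 1 and 7.12 in replicate 2, against 16.6 and 5.04 in E4.5. The part of these cell types in the Pmaip1 difference was not tested.

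Other Pmaip1 differences did not pass. They were −2.12 ± 0.82 for OVX against E4.5 (edgeR adjusted p = 0.23), −1.73 ± 0.71 for reduced KSOM against E4.5 (0.28) and 2.03 ± 0.82 for targeted OVX against OVX (0.4). After removal of the 4 libraries with muscle transcripts, the first was −2.06 ± 1.14 (0.72) and the last 1.95 ± 1.13 (0.78). Without E4.5 replicate 1, the differences from E4.5 were −0.85 in OVX (adjusted p = 0.87) and −0.46 in reduced KSOM (0.97). Against E4.5, starvation differed by −0.61 ± 0.79 (adjusted p = 0.75) and targeted OVX by −0.1 ± 0.78 (1).

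Bcl2l11 (ENSMUSG00000027381, chr2:128126038-128162547), which encodes the direct activator BIM and is known as a gene induced on loss of growth factors, measured 1.06 and 1.11 FPKM in E4.5 and 0.57 and 2.43 in starvation. It measured 0.18 and 0.17 FPKM in OVX, 0.16 and 0.22 in depleted KSOM, 0.34, 0.5 and 0.36 in reduced KSOM, and 0.28 and 0.22 in targeted OVX. In FPKM the libraries of E4.5 and starvation were thus above the other 9, and starvation replicate 2 was the highest of all. In TMM CPM starvation replicate 1, at 4.62, was below reduced KSOM replicate 2, at 4.84. The log2 difference between starvation and OVX was 2.56 ± 0.77 (edgeR adjusted p = 0.15), and that between depleted KSOM and E4.5 was −2.21 ± 0.76 (0.12). Neither passed, while DESeq2 called both (2.52 ± 0.72, adjusted p = 0.0094, and −2.28 ± 0.71, 0.012). The difference from OVX was 3.09 ± 1.23 after removal of the muscle-bearing libraries (edgeR adjusted p = 0.76). Without starvation replicate 1 the test over 6 groups called Bcl2l11 (adjusted p = 0.019). Without starvation replicate 2, the highest library, that test gave an adjusted p of 0.21, and the difference from OVX was 1.27 (adjusted p = 0.57). Bbc3, a target of p53 that encodes PUMA, ranged from 0.05 to 1.1 FPKM and from 6 to 169 counts, with replicates that spread widely in every group but E4.5, and it passed in no comparison.

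**Figure D4:**
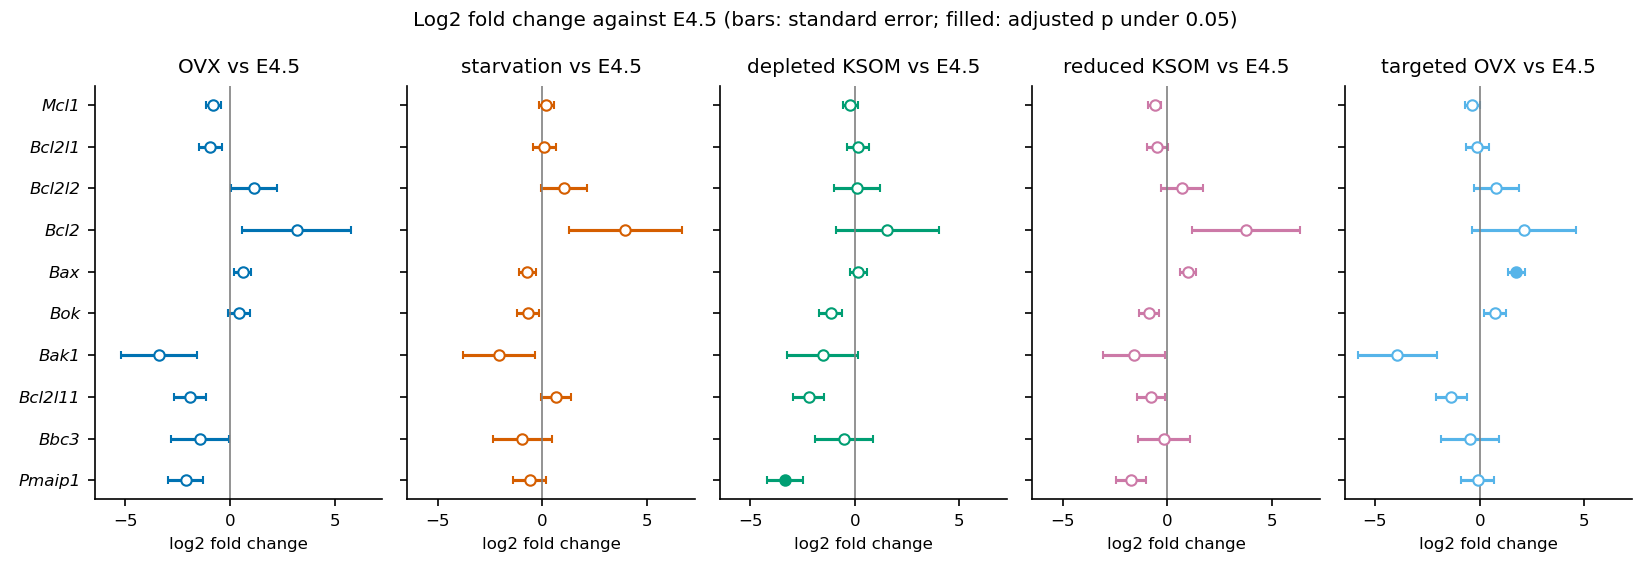
Log2 fold change of each of the 10 genes (vertical axis) against E4.5 in the 5 other groups, 1 panel per group, with standard errors as bars and filled points for an adjusted p under 0.05. Filled points are Pmaip1 in depleted KSOM (−3.33) and Bax in targeted OVX (1.74), and the bars are widest for Bcl2, which had 0 counts in 3 libraries.

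Counted over all 10 pairwise comparisons, edgeR called no member except Bax and Pmaip1 as above. For OVX against E4.5 it called 0 of 10 (2.04% of all genes), with 3 members at an unadjusted p under 0.05, against 15.8% of all genes, and 0 by DESeq2 and 1 by limma. Starvation against E4.5 gave 0 (2.21%), with 0 members at an unadjusted p under 0.05 (16.8%), 0 by DESeq2 and 1 by limma. Reduced KSOM against E4.5 gave 0 (1.13%), with 2 members unadjusted (15.2%), 0 by DESeq2 and 1 by limma. Against OVX, targeted OVX gave 0 (0.0367%) with 2 unadjusted (10.9%) and 0 by DESeq2 and limma, and reduced KSOM gave 0 (0.202%) with 1 unadjusted (9.48%) and 0 by both. Starvation against OVX gave 0 (0.225%) with 3 unadjusted (15%), 2 by DESeq2 and 0 by limma. Depleted KSOM against OVX gave 0 (0.679%) with 1 unadjusted (15.9%), 1 by DESeq2 and 0 by limma. The KSOM groups against each other gave 0 (5.79%) with 1 unadjusted (22.7%) and 0 by both tools.

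The median log2 difference of the 10 genes stood beside that of all genes in each comparison as follows. Against E4.5 the OVX value was −0.86, with 0 over all genes, and the starvation value −0.26, with 0 over all genes. Depleted KSOM gave −0.36 beside −0.09, reduced KSOM −0.54 beside 0.15, and targeted OVX −0.1 beside −0.16. With library totals as scaling, the all-gene medians against E4.5 shifted to −0.53, −0.17, −0.41, −0.5 and −0.92 in the same order, and those of the 10 genes to −1.33, −0.51, −0.67, −1.23 and −0.85. Against OVX the median of the 10 was 0.88 in starvation (0 over all genes), 0.49 in targeted OVX (−0.09), 0.43 in reduced KSOM (0.08) and −0.37 in depleted KSOM (−0.03). These medians mix survival and death genes and have no test.

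Other members of the extended family were read from a list of 16 genes, all tested. This list and the lists below were chosen with earlier results of these data known, so their counts of calls are a description. Depleted KSOM had 4 of the 16 called higher than E4.5, starvation and targeted OVX 2 each, and OVX and reduced KSOM 1 each, and 0 were called lower in these 5 comparisons. Of all genes tested, 5.51%, 2.21%, 2.66%, 2.04% and 1.13% were called in the same order. Between the KSOM groups 1 was lower in reduced KSOM, and 0 were called against OVX, with 1 to 5 at an unadjusted p under 0.05 (9.48% to 15.9% of all genes). Bnip3, a mitophagy receptor of the outer mitochondrial membrane that hypoxia is known to induce, stood at 96.4 and 134 TMM CPM in E4.5 and between 220 and 830 in all 11 other libraries. It was called higher than E4.5 in OVX (log2 difference 2.02 ± 0.39, edgeR adjusted p = 0.022), starvation (2.57 ± 0.4, 0.0099), depleted KSOM (2.08 ± 0.39, 0.011) and targeted OVX (2.41 ± 0.39, 0.0097), 4 comparisons with the same E4.5 libraries. Without E4.5 replicate 1 these calls were lost (adjusted p = 0.15, 0.081, 0.091 and 0.07), and that in OVX also without E4.5 replicate 2 (0.074) or OVX replicate 1 (0.063). With OVX resting on replicate 2, without the 4 libraries with muscle transcripts, Bnip3 was 1.67 ± 0.47 higher than E4.5 (0.18). Its difference among the 6 groups held under all 21 alternatives (adjusted p = 0.0093, and 0.0018 to 0.031 on leaving out a library).

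Bid, the BH3-only protein that caspase-8 cuts to carry death-receptor signals to mitochondria, stood at 2.82 and 2.13 CPM in E4.5, 21.8 and 15.4 in starvation, and 24.1 and 18.4 in depleted KSOM. The other 7 libraries lay between 1.35 and 8.09 CPM. It was called higher than E4.5 in starvation (2.91 ± 0.66, edgeR adjusted p = 0.041) and depleted KSOM (3.1 ± 0.66, 0.019). Those calls were lost without E4.5 replicate 1 (0.2 and 0.096), E4.5 replicate 2 (0.22 and 0.12), starvation replicate 1 (0.058) or depleted KSOM replicate 1 (0.079). Becn1, an autophagy protein with a BH3 domain, stood at 87.3 and 98.1 CPM in depleted KSOM and at 25.4 and 26.4 in E4.5 (1.84 ± 0.31, adjusted p = 0.0071, and 0.089 or 0.065 when E4.5 replicate 1 or 2 is left out). It was lower in reduced KSOM than in depleted KSOM (−1.42 ± 0.27, adjusted p = 0.017), a call lost without any 1 of the 5 libraries (0.064 to 0.12). Bnip3l, a paralogue of Bnip3, was called over the 6 groups (adjusted p = 0.043). It was not called on leaving out any 1 of 10 libraries (0.052 to 0.14), namely all but the starvation libraries and reduced KSOM replicate 3. Without the 4 libraries with muscle transcripts its adjusted p was 0.15.

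Hrk, a BH3-only gene known from neurons, had 0 counts in both E4.5 libraries. Against a floor of 3 counts per library it was at least 53.8-fold higher in depleted KSOM (2.24 ± 2.23 CPM, n = 2, edgeR adjusted p = 0.019), at least 65.7-fold in reduced KSOM (2.74 ± 1.85, n = 3, 0.043) and at least 47.4-fold in targeted OVX (1.98 ± 1.79, n = 2, 0.032). Its level stayed at or under 4.83 CPM in every library. Without the highest library of each group, the lower bounds became 15.9-fold (depleted KSOM replicate 1 left out), 40.6-fold (reduced KSOM replicate 3) and 17-fold (targeted OVX replicate 2). The depleted KSOM call was lost without E4.5 replicate 1, E4.5 replicate 2 or depleted KSOM replicate 1 (0.12, 0.1 and 0.071), and the reduced KSOM call without any 1 of its 5 libraries (0.089 to 0.25). That of targeted OVX was lost without E4.5 replicate 1, E4.5 replicate 2 or targeted OVX replicate 2 (0.15, 0.21 and 0.077).

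**Figure D5:**
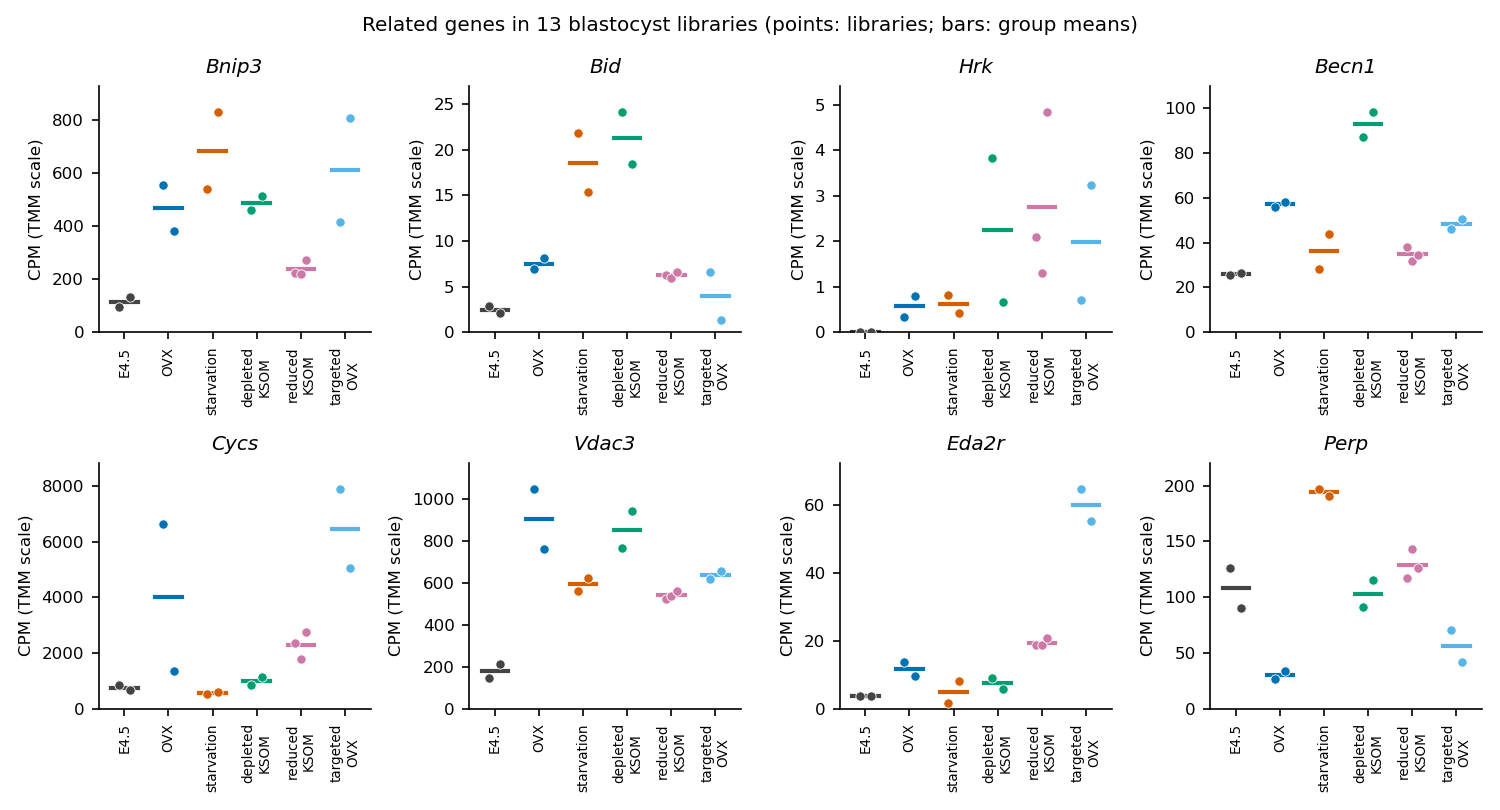
TMM-scaled CPM of 8 related genes (vertical axes, 1 scale per gene) in the 6 groups; each point is a library and each bar a group mean. Bnip3 and Vdac3 are lowest in both E4.5 libraries, Becn1 is highest on average in depleted KSOM and Bid in depleted KSOM and starvation, whose libraries overlap, and Cycs and Eda2r are highest on average in targeted OVX.

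Downstream of the mitochondrion, 14 apoptosome and caspase genes were tested, and 0 of 14 were called against E4.5 in OVX, starvation, depleted KSOM or reduced KSOM, with 4, 3, 2 and 3 at an unadjusted p under 0.05 (15.8%, 16.8%, 20.9% and 15.2% of all genes). In targeted OVX 1 was called higher, where 2.66% of all genes were called. That was Cycs, which encodes cytochrome c, the respiratory carrier that BAX pores release. It measured 836 and 666 CPM in E4.5 and 7900 and 5040 in targeted OVX (3.11 ± 0.6, edgeR adjusted p = 0.022, and 0.055 or 0.1 when E4.5 replicate 1 or 2 is left out). OVX replicate 1 had 6650 CPM of it and OVX replicate 2 had 1360, so the OVX libraries disagreed. Casp2, an initiator caspase, was lower in reduced KSOM (2.08, 1.06 and 1.7 CPM) than in depleted KSOM (23.8 and 14.4 CPM; −3.56 ± 0.87, adjusted p = 0.035), and was not called without any 1 of the 5 libraries (0.069 to 0.18). Of the inhibitors of apoptosis and their antagonists, 8 of 12 were tested and 0 were called in any comparison, with at most 2 at an unadjusted p under 0.05 (9.48% to 22.7% of all genes in the pairwise comparisons). Of 13 genes of death receptors and necroptosis, 0 were called in a pairwise comparison (0.0367% to 5.79% of all genes). At most 4 had an unadjusted p under 0.05, in starvation against OVX (15% of all genes). Cflar, which encodes the caspase-8 inhibitor c-FLIP, was called over the 6 groups (adjusted p = 0.016; 0.085 without targeted OVX replicate 1), with 42.8 and 28.4 CPM in targeted OVX and 3.23 to 12.4 elsewhere.

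Bax, Bbc3 and Pmaip1 are known targets of p53, and a list of 20 other genes of that pathway was read beside them. In targeted OVX, where Bax was highest, 2 of 20 were called higher than E4.5 and 0 lower, where 2.66% of all genes were called. Over the 6 groups 6 of 20 were called, against 12.3% of all genes. Eda2r, a receptor of the TNF family, measured 64.8 and 55.2 CPM in targeted OVX and at most 20.7 in the other 11 libraries (4.04 ± 0.63, edgeR adjusted p = 0.0091; 0.061 without E4.5 replicate 2). Rps27l, a ribosomal protein paralogue, was higher by 2.33 ± 0.5 (adjusted p = 0.031, and 0.21 or 0.055 when E4.5 replicate 2 or targeted OVX replicate 1 is left out). Against OVX 0 of the 20 were called in targeted OVX, with 7 at an unadjusted p under 0.05 (10.9% of all genes). Perp, a desmosomal protein, went its own way: it measured 26.7 and 33.9 CPM in OVX, below all 11 other libraries, and 197 and 191 in starvation, above them. It was called lower in OVX than in E4.5 (−1.83 ± 0.34, adjusted p = 0.019, and 0.13 or 0.093 when E4.5 replicate 1 or OVX replicate 1 is left out). It was called higher than OVX in starvation (2.68 ± 0.35, adjusted p = 0.02; 0.055 without OVX replicate 1). With the 4 libraries with muscle transcripts left out, OVX rested on replicate 2 alone, and these differences were −1.73 ± 0.52 and 2.55 ± 0.55. The Perp difference of depleted KSOM from OVX was then 1.66 ± 0.52. It was also higher than OVX in depleted KSOM (1.76 ± 0.34, 0.037, and 0.11 to 0.19 leaving out OVX replicate 1 or either depleted KSOM library) and reduced KSOM (2.09 ± 0.32, 0.024; 0.053 to 0.15 without any 1 of the 5 libraries). Rps27l was higher in reduced than in depleted KSOM (2.38 ± 0.48, adjusted p = 0.02, and 0.056 to 0.14 on leaving out any 1 library of the 5). In starvation and in both KSOM groups 0 of 20 were called against E4.5, with 8, 2 and 5 unadjusted (16.8%, 20.9% and 15.2% of all genes). Plk2, a kinase of the same list, was called over the 6 groups (adjusted p = 0.025; 0.051 to 0.091 without any reduced KSOM library or targeted OVX replicate 1).

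Enzymes that set the life of the MCL1 protein were a further list, of which 7 genes were tested. Over the 6 groups 4 of the 7 were called, against 12.3% of all genes. Against E4.5, 1 of 7 was called in reduced KSOM (1.13% of all genes) and 2 of 7 in targeted OVX (2.66%). Btrc, a ubiquitin ligase subunit, was lower than E4.5 in reduced KSOM (−1.46 ± 0.28, edgeR adjusted p = 0.033) and targeted OVX (−1.33 ± 0.32, 0.047), and lower in reduced than in depleted KSOM (−1.25 ± 0.28, 0.028). Each of these 3 calls was lost without any 1 of the libraries compared (adjusted p from 0.083 to 0.26). Marchf5, a mitochondrial ubiquitin ligase, measured 127 and 228 CPM in targeted OVX and 47.7 to 95.6 elsewhere (1.67 ± 0.37 against E4.5, adjusted p = 0.035; 0.18, 0.22 and 0.24 without E4.5 replicate 1, E4.5 replicate 2 or targeted OVX replicate 2). In OVX, starvation and depleted KSOM 0 of 7 were called against E4.5, with 1, 2 and 1 unadjusted (15.8%, 16.8% and 20.9% of all genes). Usp13, a deubiquitinase, and Dusp6, the phosphatase that acts on ERK, were called over the 6 groups (adjusted p = 0.03 each), and neither was without any 1 reduced KSOM library (0.069 to 0.083). Usp13 measured 1.76, 3.7 and 2.37 CPM in reduced KSOM, 4.87 and 0.111 in OVX, 0.146 and 0.609 in E4.5, and 0 in starvation, depleted KSOM and targeted OVX. Without OVX replicate 1 and the reduced KSOM libraries, the 4 with muscle and neutrophil transcripts, OVX rested on replicate 2 alone. Dusp6 was then narrowly called over the groups left, and Btrc, Usp13 and Marchf5 were not. Between targeted OVX and E4.5, Marchf5 then differed by 1.65 ± 0.4 and Btrc by −1.35 ± 0.38, and neither was called. The part of muscle and neutrophil transcripts in the Usp13 values was not tested.

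The membrane on which BAX and BAK act was read through 10 genes of its channels and of mitochondrial shape. Vdac3, a voltage-dependent anion channel, measured 148 and 211 CPM in E4.5 and 522 to 1050 in all 11 other libraries. It was called higher than E4.5 in OVX (2.33 ± 0.31, edgeR adjusted p = 0.0046), starvation (1.72 ± 0.31, 0.016), depleted KSOM (2.25 ± 0.31, 0.0027), reduced KSOM (1.59 ± 0.29, 0.024) and targeted OVX (1.83 ± 0.31, 0.011), with the same E4.5 libraries in all 5. The depleted KSOM call held under all 13 alternatives, the only 1 of 36 pairwise calls on the genes named here that did. Vdac3 in OVX was 2.03 ± 0.41 higher without those 4 libraries (0.042). Without E4.5 replicate 1 the other 4 Vdac3 calls were lost (adjusted p = 0.051, 0.2, 0.26 and 0.11 in the order above). Without E4.5 replicate 2 those in starvation, reduced KSOM and targeted OVX were lost (0.067, 0.11 and 0.063), and that in reduced KSOM also without any 1 of its own libraries (0.085 to 0.1). Vdac1, the most abundant isoform in many tissues, was lower in targeted OVX than in E4.5 (25.7 and 59.1 against 162 and 181 CPM; −2.02 ± 0.38, adjusted p = 0.018, and 0.088 or 0.1 when E4.5 replicate 2 or targeted OVX replicate 2 is left out).

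Within the same list, 1 other gene was called in depleted KSOM against E4.5. Mff, a receptor for the fission GTPase, was higher (1.44 ± 0.35, edgeR adjusted p = 0.033, and 0.057 to 0.32 on leaving out any 1 library of the 4). Reduced KSOM had Vdac1 lower (−1.37 ± 0.33, adjusted p = 0.033) and the fission genes Dnm1l (1.53 ± 0.38, 0.038) and Fis1 (1.11 ± 0.28, 0.04) higher than depleted KSOM. None of these 3 was called without any 1 of the 5 libraries (adjusted p from 0.076 to 0.31).

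The genes most like each abundant member in pattern were read off as Pearson's r of log2 CPM over the same 13 libraries, among 6745 genes. For Bax they were Atg4a (0.95) and Skp1a (0.91), and for Bok Psmc5 (0.95) and Ahsa1 (0.94). For Mcl1 they were Tab3 and Plaa (0.92 each), and for Bcl2l1 Cpsf2 and Ier2 (0.87 each). These points share libraries, scaling and depth, and the values are a description only.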

How the data were processed

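Whole blastocysts were profiled by full-length cDNA amplification for very low RNA input, per the labels' protocols. Without molecular identifiers, amplified copies count as separate fragments. The deposited table gives whole-number counts per gene and FPKM computed by the authors, per the file headers. The submitters' processing notes name cutadapt 1.9, HISAT2 2.0.4, StringTie 1.3.4d and GRCm38; the counting tool, annotation and strand setting are not given in the sources used here. Values are per gene, so isoforms were not distinguished.

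Groups follow the labels. Counts of 31528 genes were filtered with filterByExpr, leaving 21808, scaled by trimmed means (factors 0.671 to 1.414) and fitted with edgeR 4.0.16 (glmQLFit, glmQLFTest) on all 13 libraries, with 1 mean per group. P-values were adjusted by Benjamini-Hochberg over all genes tested, with calls under 0.05. A test over 6 groups and 10 pairwise comparisons were made. The biological coefficient of variation common to all genes was 0.9. Errors are SE for log2 differences and SD for CPM. Fold changes of genes with 0 counts used a floor of 3 counts per library. Scripts were tested on simulated data.

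Alternatives were median-of-ratios scaling, library totals, DESeq2 1.42.0, limma 3.58.1 on log2(FPKM + 1), no low-count filter, a fit of the groups compared, leaving out each library, and a block for the replicate number. Length and GC offsets per gene, and leaving out the 4 libraries with muscle and neutrophil transcripts, were chosen after seeing the data. Comparisons with reduced KSOM have no fit without those 4 libraries.

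Named beside the 10 members were up to 4 called genes per list and comparison with the smallest adjusted p, and the 2 genes most like each member whose log2 CPM averaged 3 or more. Members and lists were chosen with earlier results of these data known. Coding sequences came from GENCODE vM21. R 4.3.3 was used.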

Additional observations from a re-analysis of the deposited data

How the results depend on the processing

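No called result changed direction under any alternative. Among values that were not called, Bax against E4.5 turned from 0.61 to −0.04 in OVX and from 0.17 to −0.13 in depleted KSOM with library totals. The median of the 10 genes in targeted OVX against E4.5 turned from −0.1 to 0.02 with length and GC offsets. Only Bax, Pmaip1 and that median were followed across scalings in every comparison, so small differences of other genes may also turn. The count of members called over the 6 groups was 1 and became 2 with library totals, 4 with DESeq2, 2 with limma on FPKM, 3 without the low-count filter, 2 with length and GC offsets, and 1 to 4 on leaving out a library. For OVX and for starvation against E4.5 it went from 0 to 1 with limma. For depleted KSOM against E4.5 it went from 1 to 2 with DESeq2 and to 0 without the 4 libraries with muscle transcripts. For reduced KSOM against E4.5 it went from 0 to 1 with limma and in a fit of the groups compared. For targeted OVX against E4.5 it went from 1 to 0 with library totals, in a fit of the groups compared, and without those 4 libraries. For starvation against OVX it went from 0 to 2 with DESeq2 and to 1 without the filter, for depleted KSOM against OVX to 1 with either, and between the KSOM groups to 1 in a fit of the groups compared. On leaving out single libraries the counts ran from 0 to 1 for starvation, depleted KSOM and targeted OVX against E4.5 and starvation against OVX, and were 0 elsewhere. The cause was not tested.

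The replicate numbers did not pair the samples: 4 of 30 same-numbered pairs had a correlation of deviations over 0.1 (−0.06 to 0.19, 8992 genes). With the replicate number as a block, the depleted KSOM count against E4.5 was 0, with Pmaip1 at −3.29 (adjusted p = 0.076), and the other counts kept their values.

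Among 36 pairwise calls named, 35 were ended by leaving out some library and 32 by some other alternative; over the 6 groups 9 of 19 calls held throughout. Of the 36, a fit of the groups compared ended 22, the replicate block 17, library totals 11, leaving out the 4 libraries with muscle transcripts 11, limma 8, length and GC offsets 6, and median-of-ratios scaling and no filter 1 each. Of the 19, the 4 libraries left out ended 7, the replicate block 5, limma 4 and library totals 2. Pairwise calls that involve reduced KSOM have no fit without those 4 libraries. Counts of at most 118 for Bcl2 and 266 for Bak1 in any library limit what can be resolved in them.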
